A study of Mus musculus with 4 samples.

Results

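Breakdown of the branched-chain amino acids leucine, isoleucine and valine is described here from 10 genes: the transaminase Bcat2, the branched-chain keto acid dehydrogenase subunits Bckdha, Bckdhb and Dbt, the kinase Bckdk and the phosphatase Ppm1k that control that complex, and the downstream enzymes Ivd, Mccc1, Mccc2 and Hibch. They were chosen by gene symbol. All 10 were found among the 18820 genes of the array that carried a symbol of their own, each on 1 probe set, and all 10 lay at or above the level floor of 5.55 on the log2 scale. That floor is the median of all genes' mean levels, and 9410 genes reached it.

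The study infused short-chain fatty acids, which gut bacteria make from fibre, into the cecum of mice and profiled the liver. Male C57Bl/6J mice, 16 to 17 weeks old and fed a palm oil based semi-synthetic diet for 6 weeks, received 0.3 M sodium [1-13C]acetate (6 mice), sodium [2-13C]propionate (6 mice), sodium [2,4-13C2]butyrate (4 mice) or phosphate-buffered saline as control (6 mice). All mice carried a permanent cecal catheter and were fasted in the morning before an infusion of 6 h at 0.2 ml/h, which gave 2.4 mmol/h/kg of each acid. Liver RNA of each group was pooled and put on 1 array, so no spread between mice can be estimated, no p-value is given, and every ratio sets 1 pool against another. The butyrate pool rested on fewer mice than the others. A gene was counted as different where a ratio reached 1.2-fold (0.26 on the log2 scale), with 1.5-fold as a stricter bound.

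Branched-chain amino acids differ from most others in that hepatocytes have little of the enzyme for the opening step. BCAT2, the mitochondrial transaminase that moves the amino group to 2-oxoglutarate, is abundant in muscle, pancreas and fat and scarce in hepatocytes, while the liver is rich in the dehydrogenase that consumes the resulting keto acids. That complex is inactive when BCKDK has phosphorylated its E1 alpha subunit and active again once PPM1K has removed the phosphate. The end products are acetyl-CoA, acetoacetate and, from valine and isoleucine, propionyl-CoA.

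The 3 genes whose promoters are shown are Bcat2 and Bckdk, which varied most between the pools among the 10, and Ivd, which varied least. The windows reach from 250 bases before to 50 bases after the gene start and are RefSeq sequences of build GRCm38.p6, written 5′ to 3′ on the gene's strand. Capitals mark the CCAAT box, searched as CCAAT on either strand and so also seen as ATTGG. Bcat2 has a pair of windows in RefSeq, at chr7:45569903-45570202 and chr7:45571029-45571328, both on the plus strand. The Bckdk window lies at chr7:127903823-127904122 on the plus strand and that of Ivd at chr2:118861744-118862043 on the plus strand.
Bcat2, upstream window: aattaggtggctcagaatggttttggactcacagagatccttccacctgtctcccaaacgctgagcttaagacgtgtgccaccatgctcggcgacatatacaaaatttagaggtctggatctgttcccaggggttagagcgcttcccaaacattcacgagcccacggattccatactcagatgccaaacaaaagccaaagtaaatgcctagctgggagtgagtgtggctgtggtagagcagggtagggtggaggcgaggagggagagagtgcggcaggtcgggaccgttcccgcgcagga
Bcat2, downstream window: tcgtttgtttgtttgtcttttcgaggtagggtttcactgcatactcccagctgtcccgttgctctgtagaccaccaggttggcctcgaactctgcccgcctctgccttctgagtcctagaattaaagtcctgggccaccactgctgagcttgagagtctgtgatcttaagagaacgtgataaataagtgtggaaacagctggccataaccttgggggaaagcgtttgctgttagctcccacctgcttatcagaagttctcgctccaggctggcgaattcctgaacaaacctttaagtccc
Bckdk: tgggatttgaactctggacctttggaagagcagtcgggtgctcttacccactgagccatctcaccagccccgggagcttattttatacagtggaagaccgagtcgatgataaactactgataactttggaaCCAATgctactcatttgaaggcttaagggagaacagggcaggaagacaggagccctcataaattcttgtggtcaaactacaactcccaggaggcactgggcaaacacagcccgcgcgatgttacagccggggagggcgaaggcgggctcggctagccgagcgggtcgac
Ivd: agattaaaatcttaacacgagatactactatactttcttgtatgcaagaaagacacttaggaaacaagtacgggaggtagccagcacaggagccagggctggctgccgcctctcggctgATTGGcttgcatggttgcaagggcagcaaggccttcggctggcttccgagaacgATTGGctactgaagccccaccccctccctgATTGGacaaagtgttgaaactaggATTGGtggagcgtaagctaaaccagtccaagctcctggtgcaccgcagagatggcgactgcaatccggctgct

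Neither Bcat2 window held a CCAAT box, the Bckdk window held 1 and the Ivd window 4. Of the others, Bckdha and Hibch held 0, Ppm1k 2, Mccc1 and Mccc2 3 each, and the Bckdhb windows 2 and 1. Mccc1 varied more between the pools (0.24 log2 units) than Bckdha (0.13) and Hibch (0.15). Of the 10 genes, 9 had a window (11 windows in all) and Dbt had none. Those 11 windows held a median of 13 CG letter pairs, against 7 over all windows. At least 1 CCAAT box was held by 7 of the 11 windows, from 6 genes, against 37.4% of all 32851 windows. The match is a description of the letters in these windows.

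Bcat2 was the only 1 of the 10 genes that lay 1.2-fold from control with any acid. With acetate 7 of 10 lay below control, by any amount, as did 53.8% of the 9410 genes. With propionate 7 of 10 lay below control (60.8% of all genes), and with butyrate 5 of 10 (51.3%). The median log2 ratio of the 10 was -0.047 with acetate, -0.089 with propionate and 0.0056 with butyrate, beside -0.011, -0.034 and -0.0036 over all genes at or above the floor. At least 1.2-fold from control lay 1 of 10 genes with acetate (9.91% of all genes), 1 of 10 with propionate (10.2%) and 0 of 10 with butyrate (8.6%). That gene was Bcat2 in both cases, and the shares are near those of all genes. None of the 10 reached 1.5-fold with any acid, where 1.14%, 1.11% and 1.12% of all genes did. The 3 comparisons share the control pool, so a deviation of that pool enters each of them.

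**Figure D1:**
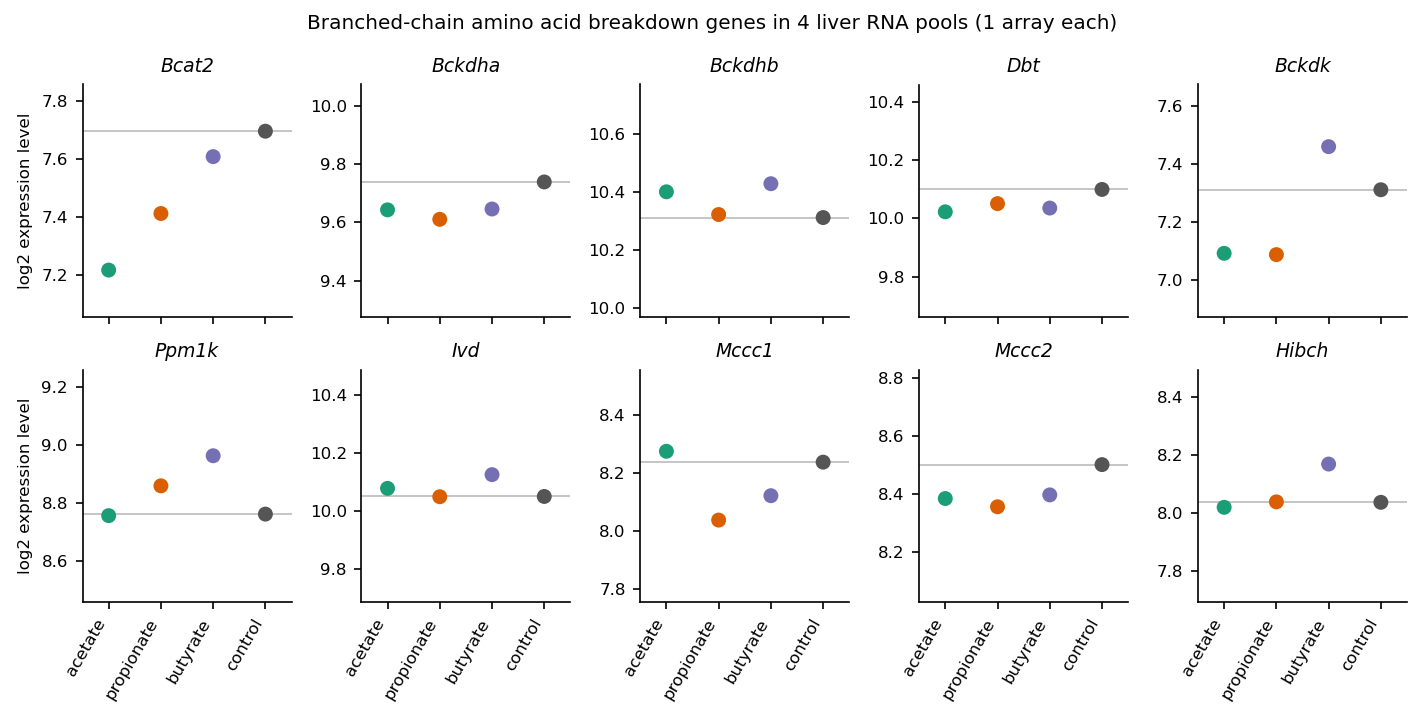
Log2 expression level of each of the 10 genes (vertical axis, each panel spanning the same range of log2 units) in the acetate, propionate, butyrate and control pools, 1 array each, with the control level as a grey line. Bcat2 stands at 7.22, 7.41 and 7.61 with acetate, propionate and butyrate against 7.70 in control, while Dbt and Ivd are nearly flat.

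Bcat2, the transaminase of the opening step, had log2 levels of 7.22 in the acetate pool, 7.41 in the propionate pool and 7.61 in the butyrate pool, against 7.70 in the control pool. It was highest in control and lowest with acetate. The control level was 1.39-fold that of the acetate pool (log2 ratio -0.48), and 1.89% of the 9410 genes lay as far or farther from control in that comparison. With propionate the log2 ratio was -0.28, a size that 8.52% of genes matched or passed, and with butyrate it was -0.088. The propionate ratio sat just past 1.2-fold and was -0.24 after cyclic loess and -0.095 against the mean of the other 3 pools, both short of it.

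Pancreatic acinar markers moved with Bcat2 across the 4 pools. Their median log2 level was 8.89 with acetate, 9.18 with propionate and 9.47 with butyrate, against 9.85 in control, the same order as for Bcat2. All 10 measured markers lay below control with each acid, by medians of -0.90, -0.65 and -0.35. The log2 of their summed level was 12.7, 12.9 and 13.2 against 13.5 in control, and none was below the floor in any pool. The lowest ratios with acetate were those of the lipase-family gene Pnliprp2 (-1.12) and of the zymogen granule gene Sycn (-1.11). The part of acinar RNA in the Bcat2 ratios was not tested.

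Skeletal muscle and fat are also rich in this enzyme. The median log2 level of 12 muscle markers was 6.33 with acetate, 6.58 with propionate and 4.84 with butyrate, against 6.33 in control. All 12 lay below control with butyrate, by a median of -1.90, with 11 of them under the floor in that pool against 2 in control. Among them were the myosin light chain Myl1 (-3.15) and myoglobin (Mb, -2.98). The median of 7 adipocyte markers was 5.71, 5.10 and 4.92 with acetate, propionate and butyrate and 5.70 in control, with 4 of the 7 below the floor in the butyrate pool. The part of muscle and fat RNA in the Bcat2 ratios was not tested either. Hepatocyte markers, which check the labelled tissue, were high: all 10 lay between 12.1 and 13.4 in every pool. Their median level differed from that of control by at most 0.020. The largest single ratio to control among them was that of Hnf4a (-0.16 with butyrate). In pooled tissue, fewer cells of a type and less RNA per cell cannot be told apart.

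**Figure D2:**
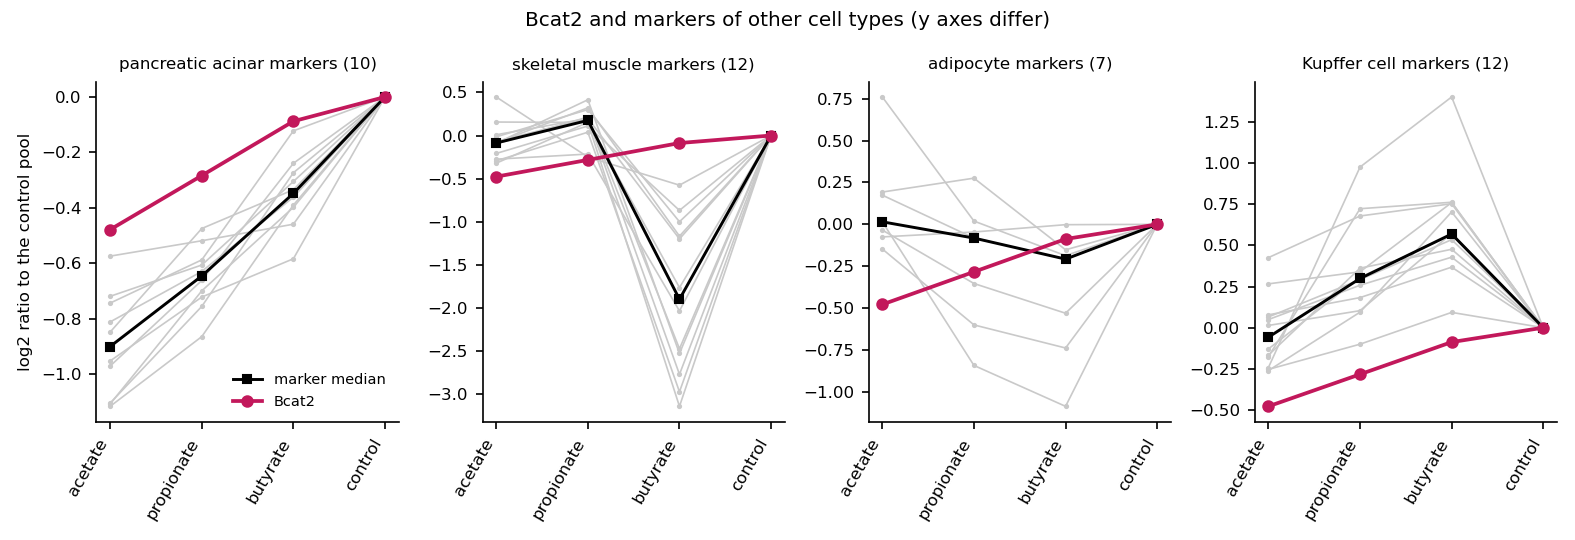
Log2 ratio to the control pool (vertical axes, which differ between panels) of Bcat2 (red), of each marker of 4 cell types (grey) and of their median (black) in the acetate, propionate, butyrate and control pools. Lines join the values of 1 gene or median; the acinar medians are -0.90, -0.65 and -0.35 with acetate, propionate and butyrate, in the order of Bcat2, and the muscle median is -1.90 with butyrate.

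The dehydrogenase subunits all lay within 1.2-fold of control. Bckdha, which encodes the E1 alpha subunit that is phosphorylated, had 9.64, 9.61 and 9.65 with acetate, propionate and butyrate against 9.74 in control, log2 ratios of -0.096, -0.13 and -0.093. Bckdhb, its E1 beta partner in the decarboxylating core, had 10.40, 10.32 and 10.43 in the same order against 10.31 in control, ratios of 0.089, 0.010 and 0.12. Bckdha was thus lower than control in all 3 acid pools. Bckdhb was higher with acetate and butyrate and level with control with propionate, where 93.3% of genes lay as far or farther. Against the shared control pool, the ratio of Bckdha to Bckdhb within an array was lower by 0.18, 0.14 and 0.21 log2 units. Each of these sizes is under 1.2-fold.

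Dbt, the E2 subunit that carries the acyl group on a lipoyl arm, had 10.02, 10.05 and 10.04 with acetate, propionate and butyrate against 10.10 in control. Its span over the 4 pools was 0.077 log2 units, and 89.9% of genes at or above the floor varied by as much or more. Dld, the E3 subunit shared with the pyruvate and 2-oxoglutarate dehydrogenases, had 8.94, 8.94 and 8.92 with acetate, propionate and butyrate against 8.85 in control.

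Bckdk, the kinase that switches the complex off, had log2 levels of 7.09 with acetate, 7.09 with propionate and 7.46 with butyrate, against 7.31 in control. The acetate and propionate pools lay below control by nearly the same amount (log2 ratios of -0.22 each) and the butyrate pool above it (0.15). Its span of 0.37 log2 units was the second of the 10 after that of Bcat2 (0.48), and 12.0% and 5.99% of all genes varied by as much or more. Against the mean of the other 3 pools, Bckdk was 0.30 log2 units higher with butyrate, past 1.2-fold. In that comparison 7.4% of all genes lay past 1.2-fold either way. Kupffer cell markers, all 12 of them, also lay above control with butyrate (median 0.57), as did 11 of 12 with propionate (median 0.30), where Bckdk was below control. Their part in the Bckdk values was not tested.

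Ppm1k, the phosphatase that reactivates the complex, had 8.76 with acetate, 8.86 with propionate and 8.96 with butyrate, against 8.76 in control. It was level with control in the acetate pool and highest with butyrate, at a log2 ratio of 0.20 that 15.3% of genes matched or passed. The ratio of Bckdk to Ppm1k within an array was lower than in control by 0.21 log2 units with acetate, 0.32 with propionate and 0.053 with butyrate. Of these 3 values, that of propionate alone reached the size of 1.2-fold, a threshold set for ratios of single genes. The share of other gene pairs that differ by as much was not computed, so the rank of this value is unknown.

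**Figure D3:**
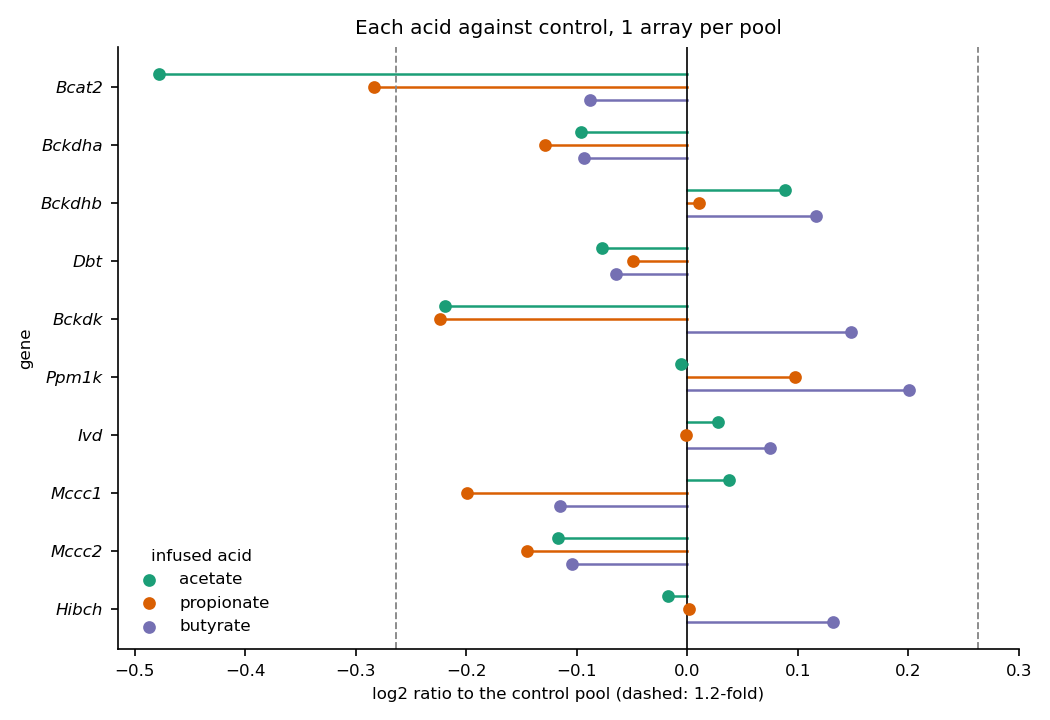
Log2 ratio of each of the 10 genes to the control pool (horizontal axis) with acetate, propionate and butyrate, 1 array per pool; dashed lines mark 1.2-fold. Only Bcat2, with acetate (-0.48) and propionate (-0.28), passes a dashed line, and Bckdk lies on opposite sides of control with butyrate (0.15) and with the other acids (-0.22 each).

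In the leucine branch, Ivd oxidises isovaleryl-CoA and passes the electrons to the electron transfer flavoprotein. It had 10.08, 10.05 and 10.12 with acetate, propionate and butyrate against 10.05 in control, a span of 0.076 log2 units that 90.1% of genes matched or passed. The next enzyme, methylcrotonyl-CoA carboxylase, is built from Mccc1, the alpha subunit that binds biotin, and Mccc2, the beta subunit. Mccc1 had 8.27, 8.04 and 8.12 with acetate, propionate and butyrate against 8.24 in control, so that the propionate pool was lowest (log2 ratio -0.20) and the acetate pool level with control (0.037). Mccc2 had 8.39, 8.36 and 8.40 in the same order against 8.50 in control, below control in each acid pool, by 0.10 to 0.15 log2 units. The ratio of Mccc1 to Mccc2 within an array differed from that of control by 0.15 with acetate, -0.054 with propionate and -0.011 with butyrate.

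In the valine branch, Hibch releases free 3-hydroxyisobutyrate from its CoA ester. It had 8.02, 8.04 and 8.17 with acetate, propionate and butyrate against 8.04 in control, log2 ratios of -0.017, 0.0015 and 0.13. Bckdk, Ppm1k, Ivd, Hibch and Bckdhb were all highest in the butyrate pool. Bcat2, Bckdha, Dbt and Mccc2 were highest in control, and Mccc1 with acetate.

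Acetate, propionate and butyrate differ in the length of their carbon chain and were given at the same molar rate and time, so the 3 pairs of acids can be set side by side. With no replicate, none of these differences has an interval or a test. Butyrate lay above acetate in 9 of 10 genes by any amount, where 52.4% of all genes did, and by a median of 0.038 (0.0082 over all genes). The differences of Bckdha, Mccc2 and Dbt were at most 0.013. At least 1.2-fold apart were 2 of 10, against 13.5% of all genes: Bcat2 (0.39) and Bckdk (0.37). Bcat2 was at 7.61 with butyrate and 7.22 with acetate, and Bckdk at 7.46 with butyrate and 7.09 with acetate. Of the hepatocyte markers 8 of 10 were higher with butyrate than with acetate (median 0.028), and of the other pathway enzymes 4 of 12 (median -0.044). All 10 acinar markers (median 0.57) and all 12 Kupffer cell markers (median 0.53) were also higher with butyrate than with acetate, and all 12 muscle markers were lower (median -1.60). Their part in these differences was not tested.

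Butyrate lay above propionate in 9 of 10 genes too, with 59.6% of all genes on that side, and by a median of 0.094 (0.034 over all genes). Bckdk (0.37) was the 1 gene of 10 that lay at least 1.2-fold apart, against 10.7% of all genes. Genes listed for the route from propionyl-CoA to succinyl-CoA were higher with butyrate in 8 of 10 (median 0.081). So were 4 of 10 hepatocyte markers (median -0.0056) and 6 of 12 other pathway enzymes (median -0.0068). Here too all 10 acinar markers (median 0.30) and all 12 Kupffer cell markers (median 0.22) were higher with butyrate. All 12 muscle markers were lower (median -1.87), and the part of these cell types was not tested. Propionate lay above acetate in 4 of 10 genes (41.7% of all genes), and 0 of 10 reached 1.2-fold (6.91%). The largest differences there were those of Mccc1 (-0.24, levels of 8.04 with propionate and 8.27 with acetate) and Bcat2 (0.19). In no pair did any of the 10 reach 1.5-fold, where 1.9%, 0.956% and 0.553% of all genes did for butyrate against acetate, butyrate against propionate and propionate against acetate.

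Of 12 other enzymes of the pathway that were measured, 0 lay 1.2-fold from control with any acid. Over all genes the shares were 9.91% with acetate, 10.2% with propionate and 8.6% with butyrate. The list medians were 0.0058, -0.023 and -0.026 with acetate, propionate and butyrate. Hadhb, the thiolase subunit of the trifunctional protein, which also serves fatty acid oxidation, had the largest ratio (0.20 with acetate), followed by Hsd17b10, a dehydrogenase of isoleucine breakdown (-0.18 with acetate and -0.19 with propionate). Echs1, the short-chain enoyl-CoA hydratase, stood at -0.16 with propionate. Bcat1, the cytosolic transaminase, was near background, with levels of 3.70, 3.84 and 3.86 with acetate, propionate and butyrate against 3.88 in control.

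Of 8 measured genes listed for transport of branched-chain amino acids or keto acids, 7 had mean levels at or above the floor. Of these 7, at least 1.2-fold from control lay 2 with acetate (9.91% of all genes at or above the floor), 1 with propionate (10.2%) and 1 with butyrate (8.6%). Slc6a19, below the floor and named for the count only, was also past 1.2-fold with acetate. Slc43a1, a transporter of large neutral amino acids that include the branched-chain ones, had 7.20 with acetate, 7.09 with propionate and 7.70 with butyrate, against 7.60 in control (log2 ratios of -0.39, -0.50 and 0.10). Like Bckdk it was below control with acetate and propionate and above it with butyrate. Slc7a8, another carrier of neutral amino acids, was at 0.52 with butyrate and at 0.0094 with acetate. Slc7a5, the light chain of a leucine exchanger, was at -0.29, -0.23 and -0.17, while its heavy chain Slc3a2 was at 0.24, 0.23 and 0.059. Slc25a44, the mitochondrial carrier of branched-chain amino acids, was at -0.068, -0.054 and -0.25.

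Genes that supply cofactors and regulators differed in single cases. Hlcs, which attaches biotin to carboxylases such as MCCC1, was at -0.27, -0.14 and 0.16 with acetate, propionate and butyrate. It was the only 1 of 8 cofactor and electron acceptor genes to reach 1.2-fold, and only with acetate (9.91% of all genes). With propionate and butyrate 0 of 8 did (10.2% and 8.6%). Btd, which recycles biotin, was at -0.16, -0.22 and -0.022. Lipt1, which transfers lipoyl groups to E2 subunits such as DBT, was at -0.15, -0.18 and -0.073, and Lipt2, an earlier enzyme of lipoyl attachment, at -0.17, 0.028 and 0.11. Etfdh, which takes electrons from the flavoprotein, was at 0.13, 0.041 and 0.16. Among 6 regulators, the coactivator Ppargc1a was at 0.51, 0.13 and 0.22 and the lipogenic factor Srebf1 at -0.075, -0.050 and -0.32. Klf15, which induces amino acid breakdown genes in fasting, was at 0.15, 0.022 and -0.018, and Mlxipl, which raises Bckdk and lowers Ppm1k in rat liver, at -0.033, -0.10 and -0.17.

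The pyruvate dehydrogenase complex is controlled by kinases that are relatives of BCKDK. Of the 9 genes of its list at or above the floor, 3 lay 1.2-fold from control with acetate (9.91% of all genes), 1 with propionate (10.2%) and 1 with butyrate (8.6%). Pdk3, below the floor and named for the count only, was also past 1.2-fold with acetate and butyrate. Pdk4 was at 0.68 with acetate and -0.72 with butyrate, both past 1.5-fold, where Bckdk was at -0.22 and 0.15. Pdk1 was at -0.31 with acetate, -0.45 with propionate and -0.068 with butyrate. The list for the route of propionyl-CoA, a product of valine and isoleucine, to succinyl-CoA also held genes that handle cobalamin and succinyl-CoA ligase subunits. The mutase gene that forms succinyl-CoA was searched only as Mut, and no probe set carried that symbol. Of the 10 measured genes, 0 lay past 1.2-fold with any acid (9.91%, 10.2% and 8.6% of all genes with acetate, propionate and butyrate). The lowest ratio was that of Pcca (-0.23 with propionate). No test of these differences between lists was possible with 1 array a group.

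**Figure D4:**
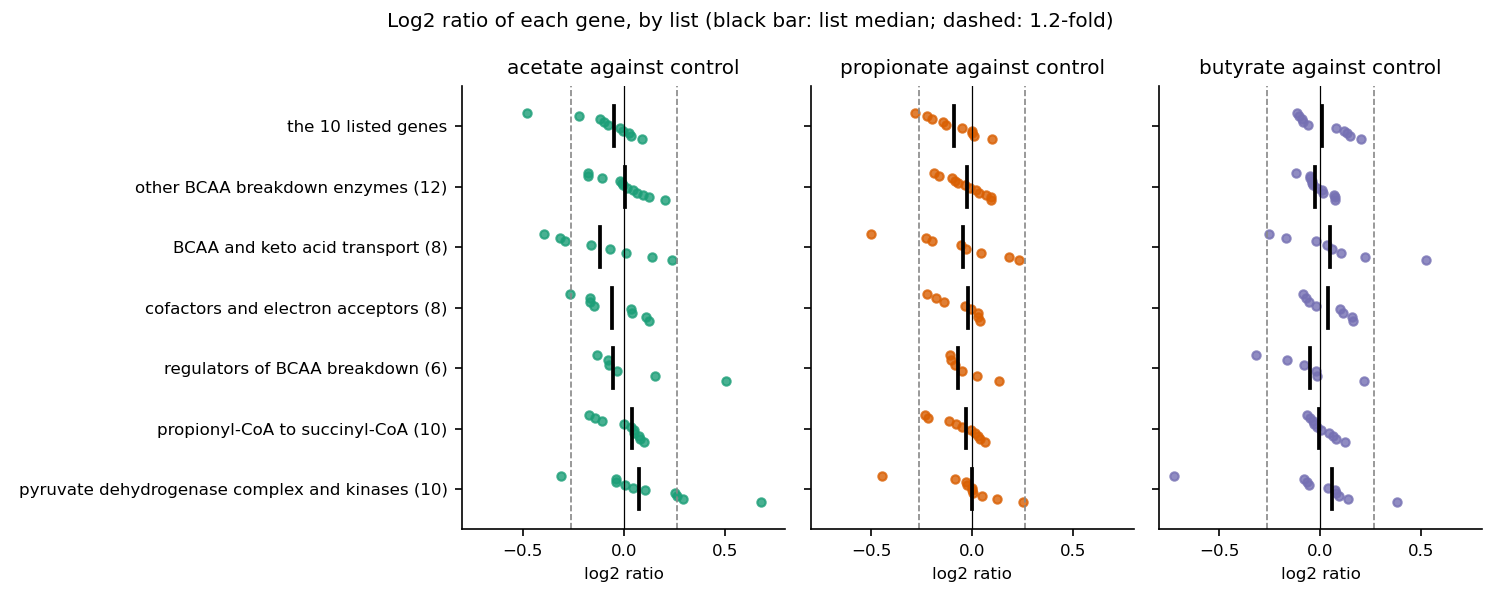
Log2 ratio to control of each gene (points, horizontal axis) with acetate, propionate and butyrate, for the 10 branched-chain genes and 6 other lists, with the number of measured genes in brackets; black bars are list medians and dashed lines mark 1.2-fold. Bcat2 is the only 1 of the 10 outside the dashed lines, with acetate and propionate, while Slc43a1 (-0.50 with propionate), Slc7a8 (0.52 with butyrate) and Pdk4 (0.68 with acetate) are among those outside them in other lists.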

How the data were processed

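Liver RNA of 22 mice was measured as 4 pools on 4 arrays, 1 per group. Each probe set has 1 log2 value per array in the deposited table. The submitters' processing notes name RMA, which subtracts background, equalises the distributions of the arrays and combines probes into probe sets; they give no version or setting. Array medians lay between 5.11 and 5.12, so a shift of all genes in 1 pool could not be seen. Levels were compared within a probe set, not between probe sets.

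Of 35556 probe sets, 21218 had 1 symbol in GEO's platform annotation, 1881 several and 12457 none there; those with 1 were averaged per symbol. Ratios are differences of log2 values between 2 pools. Percentages of all genes are over the 9410 at or above the floor. No interval can be given, and the number of arrays limits the precision. The ratio and count steps were tested on simulated data with known fold changes. Of 115 genes in 12 other lists, 8 had no probe set of their own under the symbol searched. Members, lists and thresholds were chosen with earlier results of these data known. All 10 genes are named; of other lists, up to 5 in order of absolute ratio among those at or above the floor, plus Dld and Bcat1. Python 3.11.15, pandas 2.3.3, R 4.3.3 and limma 3.58.1 were used. Alternatives were cyclic loess, centring on hepatocyte markers, the highest probe set, probe sets with several symbols, the mean of the other 3 pools as baseline, the fold threshold, the floor and the mean as summary. The genome build behind the array is not given in those notes or the labels.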

Additional observations from a re-analysis of the deposited data

How the results depend on the processing

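The counts of the 10 genes past 1.2-fold kept their value in 32 of 39 alternatives. Those with the highest probe set or the floor could not change, since each gene had 1 probe set and lay at or above the floor. Nor could the 1.5-fold bound change the counts that were already 0, for butyrate against control and propionate against acetate. Counting probe sets with several symbols could change Mccc1 alone. The ratios to control past 1.2-fold, those of Bcat2 with acetate and propionate, kept their sign (ratios of single genes between acids were not rerun). At 1.5-fold the counts were 0 with acetate and 0 with propionate against control, 0 for butyrate against acetate and 0 for butyrate against propionate. With propionate the count was 0 after cyclic loess and 0 against the mean of the other 3 pools, since Bcat2 (-0.24 and -0.095) then lay inside the threshold. Against that mean the butyrate count was 1 (Bckdk, 0.30). The alternative medians of the 10 genes, for which no replicate spread sets a scale, ran from -0.086 to -0.037 with acetate, from -0.096 to -0.062 with propionate and from -0.015 to 0.075 with butyrate, where the sign was not settled. Centring on hepatocyte markers shifted arrays by at most 0.020. No paired analysis was possible because each group has 1 array, and leaving out a replicate was not possible for the same reason. With 1 pool per group, differences between mice and between arrays cannot be told apart from those between infusions.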

Other observations

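The 2 core genes of the 2-oxoglutarate dehydrogenase complex, which shares its E3 subunit with the branched-chain complex, were level in these pools. Ogdh was at 0.091 with acetate and Dlst no more than 0.020 from control with each acid. A probe set shared by Mccc1 and its antisense neighbour Mccc1os was near background, at log2 levels of 3.50, 3.37 and 3.55 with acetate, propionate and butyrate against 3.44 in control. It entered the Mccc1 values only where probe sets with several symbols were counted.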
